A study of Rattus norvegicus with 6 samples.

Results

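The 9 genes described here encode the isocitrate dehydrogenases and other enzymes that supply NADPH: Idh1, Idh2, Idh3a, Idh3b, Idh3g, Pgd, Me1, Me3 and Nnt. They were chosen by name, with the difference between ACS and control muscle already known, so their values in that comparison are a description. Of the 9, 8 were found among the 30957 genes of the table, and all 8 passed the filter on low counts, which left 12873 genes. Idh3b is spelled Idh3B there and was matched ignoring case. Pgd matched no row by symbol and was not analysed here.

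RNA came from the flexor digitorum longus, a toe-flexing hind-limb muscle of wild-type Sprague-Dawley rats. The study set 3 libraries of control muscle at 0 h against 3 libraries of muscle taken 18 h into ACS, acute osteofascial compartment syndrome, a condition in which rising pressure within the fascia chokes the muscle's circulation. ACS was produced by tying a band of low elasticity around the knee. All control libraries were at 0 h and all ACS libraries at 18 h, so ACS and elapsed time cannot be told apart. The rats' ages, like whether each library came from its own rat, were not given in the sources used here. Errors and p-values therefore cover the spread of these libraries alone, and that spread may be technical. The treatment field reads ACS for all 6 libraries, and the groups come from the sample titles.

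NADPH carries the electrons that cells use to reduce glutathione and thioredoxin and to build fatty acids. Cells keep separate pools in the cytosol and in mitochondria, fed by paired enzymes: Idh1 and Me1 in the cytosol, Idh2 and Me3 in the mitochondrial matrix, with the phosphogluconate dehydrogenase Pgd in the cytosol and the transhydrogenase Nnt in the inner mitochondrial membrane. The 3 Idh3 subunits form a different enzyme, which reduces NAD+ instead of NADP+ and drives the citrate cycle. Skeletal muscle is rich in mitochondria, and Idh2 is known as its main NADP-linked isocitrate dehydrogenase.

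Library totals lay between 14340865 and 21003928 counts. ACS replicate 1 stood apart: genes of the mitochondrial chromosome took 43.4% of its counts, against 4.82% to 8.60% in the other 5 libraries. FPKM, the authors' counts per kilobase scaled to the library total, are lowered by that share in this library. CPM below are counts scaled to a common library size by TMM, a factor that lines up most genes between libraries. In bulk muscle, fewer cells of a type and less RNA per cell cannot be told apart.

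In control muscle every mitochondrial member but Me3 was more abundant than the cytosolic Idh1 and Me1. Per length, Idh2 had the highest mean at 348 ± 68.8 FPKM (SD, n = 3). It was followed by Idh3g, the gamma subunit, at 276 ± 96.8 FPKM, Nnt at 171 ± 15.04 FPKM, Idh3B, the beta subunit, at 164 ± 32.8 FPKM and Idh3a, the catalytic alpha subunit, at 144 ± 4.64 FPKM. Each of these 5 overlapped its neighbour in the order over the control libraries. Me1, the cytosolic malic enzyme, came next at 74.6 ± 15.6 FPKM and overlapped neither neighbour. Me3, its mitochondrial counterpart, was at 14.6 ± 2.05 FPKM and Idh1 at 11.5 ± 1.47 FPKM, and these overlapped. Among the members found, the 2 compartments thus differed in which enzyme led: malic enzyme in the cytosol and isocitrate dehydrogenase in the mitochondria. The cytosolic side was Idh1 and Me1 only, since Pgd was not analysed.

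Idh1 was the lowest of the 8 in each of the 6 libraries, and Me3 the second lowest. In ACS muscle the order of means was Idh2, Idh3g, Idh3a, Idh3B, Nnt, Me1, Me3 and Idh1, from 173 ± 48.8 FPKM for Idh2 to 2.13 ± 0.881 FPKM for Idh1 (SD, n = 3 each). The top 5 again overlapped their neighbours, while Me1, Me3 and Idh1 were each separate from the next. Idh1 went from percentile 70.5 to percentile 32.3 of the mean FPKM of all tested genes, and Idh2 from 99.0 to 98.2.

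Idh1 is the cytosolic and peroxisomal enzyme that turns isocitrate into oxoglutarate and makes NADPH. It had 504, 446 and 434 counts in control replicates 1, 2 and 3 and 77, 45 and 106 in ACS replicates 1, 2 and 3. On the TMM scale these were 24.6, 21.6 and 17.9 CPM against 7.20, 2.31 and 5.92 CPM. Every ACS library lay below every control library, and ACS replicate 2, not the library rich in mitochondrial reads, was the lowest. Exact Poisson intervals of 95%, which cover counting error only, ran from 32.8 to 60.2 for the 45 counts and from 86.8 to 128 for the 106 counts, so these ACS replicates differed by more than counting error.

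The mean of Idh1 in ACS muscle was 24.1% of control, at 5.15 ± 2.53 against 21.4 ± 3.33 CPM (SD, n = 3 each). In edgeR's quasi-likelihood fit over all genes its log2 fold change was -2.06 (SE 0.422), with a 95% interval from -3.02 to -1.10. The fit gave adjusted p = 0.0381, and since Idh1 was chosen with this known the value is a description. Without ACS replicates 1, 2 and 3 the log2 fold change was -2.38, -1.74 and -2.20, and adjusted p stayed under 0.05. Without control replicates 1, 2 and 3 it was -2.00, -2.10 and -2.21 with adjusted p of 0.173, 0.160 and 0.123 in edgeR, fits in which no gene of the table passed. The descriptions of control replicate 3 and ACS replicate 3 hold the letters "ji". A term for these 2 libraries gave -2.06 (edgeR adjusted p = 0.0630). The log2 ratio of CPM was -1.60 within that pair and -2.28 in the other 4 libraries.

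Me1, the malic enzyme that makes cytosolic NADPH from malate, was at 226, 274 and 176 CPM in control and 112, 175 and 201 CPM in ACS muscle. The groups overlapped in CPM, with ACS replicate 1 the lowest of all 6 libraries. In FPKM Me1 did not overlap, at 60.04 to 91 in control and 24.84 to 56.56 in ACS muscle. Its log2 fold change was -0.47 (SE 0.316), with an interval from -1.19 to 0.26, and -0.26 without ACS replicate 1. Within the "ji" pair the log2 ratio was 0.20, against -0.80 in the other 4 libraries, so the direction was not the same in both.

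**Figure D1:**
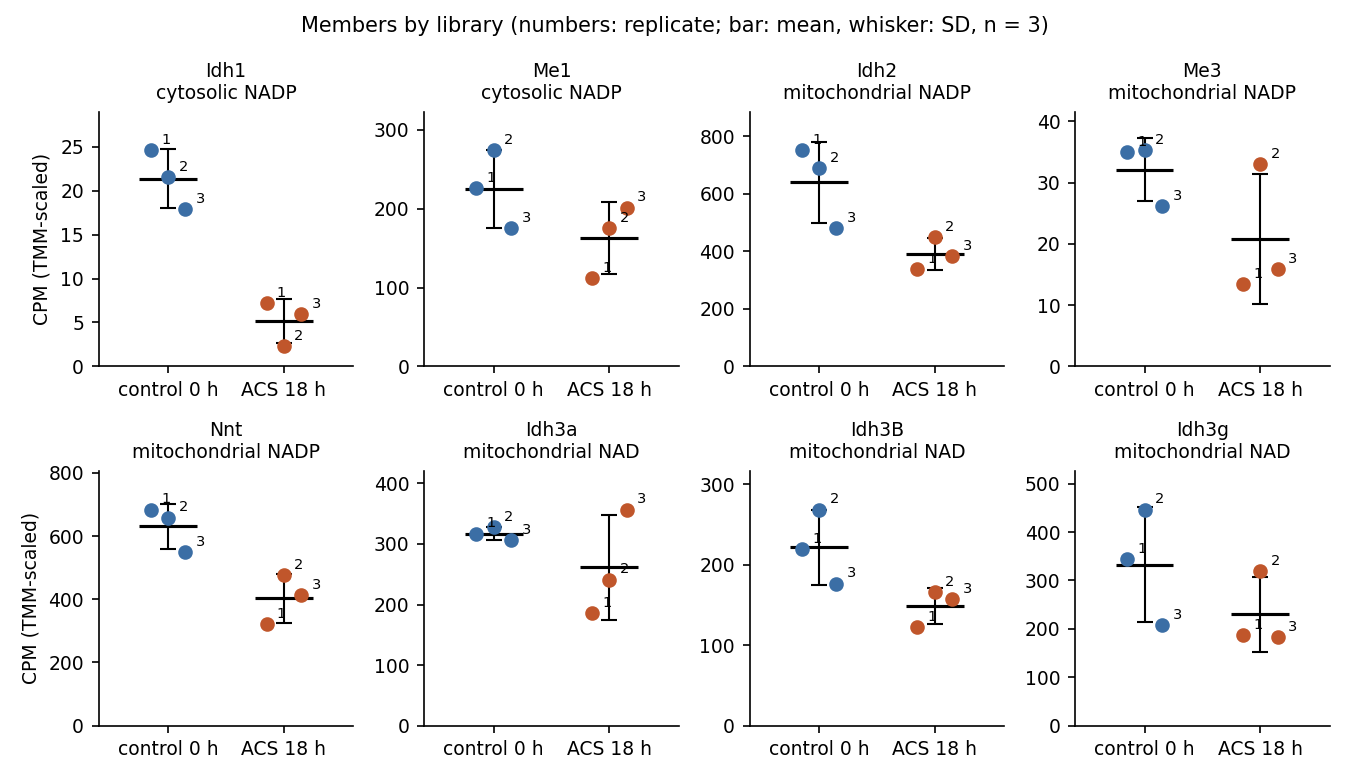
CPM (TMM-scaled, linear axes from 0) of each found member in the 3 control and 3 ACS libraries; numbers give the replicate, bars the mean and whiskers the SD. Idh1 shows the lowest ACS mean as a share of control, 24.1%, with values from at least 17.9 CPM in control to at most 7.20 CPM in ACS muscle, while Me1, Me3, Idh3a and Idh3g overlap.

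The promoters of Idh1, Me1 and Idh2 are shown because they are the cytosolic members measured and the most abundant mitochondrial one, compared as ratios below. Each sequence runs from 250 bases before to 50 bases after the RefSeq start site on the build GRCr8, 5′ to 3′ on the gene's strand. Capitals mark matches on either strand to the antioxidant response element TGACNNNGC (bound by Nrf2), the GC box GGGCGG or the CCAAT box CCAAT.
Idh1, chr9:74049425-74049724, minus strand: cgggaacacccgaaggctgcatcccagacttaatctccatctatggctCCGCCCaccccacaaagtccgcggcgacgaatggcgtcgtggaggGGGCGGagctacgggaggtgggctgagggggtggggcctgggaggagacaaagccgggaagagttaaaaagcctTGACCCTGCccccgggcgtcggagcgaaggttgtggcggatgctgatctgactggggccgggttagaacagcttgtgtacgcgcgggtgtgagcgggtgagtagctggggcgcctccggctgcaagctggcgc
Me1, chr8:96540195-96540494, minus strand: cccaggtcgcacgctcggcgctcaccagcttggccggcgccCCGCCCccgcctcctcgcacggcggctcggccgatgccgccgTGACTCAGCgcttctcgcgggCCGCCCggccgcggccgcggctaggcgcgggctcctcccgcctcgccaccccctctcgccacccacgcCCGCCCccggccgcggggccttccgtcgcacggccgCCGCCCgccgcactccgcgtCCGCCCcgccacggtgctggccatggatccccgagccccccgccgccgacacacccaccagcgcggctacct
Idh2, chr1:143467199-143467498, minus strand: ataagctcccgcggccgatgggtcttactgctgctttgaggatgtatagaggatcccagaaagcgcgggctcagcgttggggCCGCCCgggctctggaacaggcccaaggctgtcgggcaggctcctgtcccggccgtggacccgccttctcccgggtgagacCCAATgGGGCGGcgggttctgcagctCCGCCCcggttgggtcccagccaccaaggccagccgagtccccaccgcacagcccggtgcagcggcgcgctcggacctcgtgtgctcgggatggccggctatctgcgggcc
Idh1 held the letters TGACCCTGC at positions -83 to -75 and Me1 the letters TGACTCAGC at positions -167 to -159, while the Idh2 window had no match to that element. Of 33469 rat promoters of this length, 12.1% held it, as did those of Idh1, Me1, Nnt and Idh3g among the 8 listed genes with an entry. The GC box, in 33.1% of all promoters, was in Idh1, Me1, Idh2 and Pgd. The CCAAT box, in 37.5%, was in Idh2 among the printed sequences. A sterol response element (TCACNCCAC, in 1.12% of promoters) and a TATA box (TATAAA, in 14.2%) were searched too, and neither was in any of the 8. An E-box (CACGTG, in 6.42%) was in Nnt only, overlapping its antioxidant response element. A match is a description of letters and was not tested as a site.

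Idh2, the matrix enzyme with the same reaction as Idh1, was at 752, 689 and 480 CPM in control and 338, 451 and 385 CPM in ACS replicates 1, 2 and 3. The groups did not overlap, but control replicate 3 was close to ACS replicate 2. The mean was 61.1% of control and the log2 fold change -0.71 (SE 0.303), with an interval from -1.40 to -0.02. Nnt, which uses the proton gradient to pass electrons from NADH to NADP+, was at 684, 659 and 550 CPM in control and 322, 475 and 412 CPM in ACS muscle, also without overlap. Its log2 fold change was -0.65 (SE 0.290), with an interval from -1.31 to 0.02.

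Me3 was at 35.0, 35.3 and 26.1 CPM in control and 13.5, 33.0 and 15.8 CPM in ACS muscle. ACS replicate 2 lay within the control range and the other 2 ACS libraries below it. The log2 fold change was -0.63 (SE 0.367), or -0.40 without ACS replicate 1 and -1.16 without ACS replicate 2. The library with the lowest Idh1 thus had the highest Me3 of the ACS group.

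Among the subunits of the NAD-linked enzyme, Idh3a was at 317, 328 and 306 CPM in control and spread to 186, 241 and 357 CPM in ACS muscle. In CPM its control libraries varied by 3.49% (SD over mean) and its ACS libraries by 33.3%, from below to above the control range. In FPKM Idh3a was at 140.3, 149.4 and 143.3 in control and 56.41, 98.25 and 137.3 in ACS muscle. Every ACS library was then below the control range, so the overlap depended on the scale. The log2 fold change was -0.28 (SE 0.309), or -0.09 without ACS replicate 1 and -0.57 without ACS replicate 3. Idh3B, a regulatory subunit, was at 219, 268 and 176 CPM in control and 123, 166 and 157 CPM in ACS muscle, with no overlap and a log2 fold change of -0.57 (SE 0.279). Idh3g, the other regulatory subunit, was at 344, 446 and 208 CPM in control and 188, 319 and 182 CPM in ACS muscle, with overlap. Its log2 fold change of -0.53 (SE 0.374) became -0.32 without control replicate 2, -0.83 without control replicate 3 and -0.88 without ACS replicate 2.

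Over the 8 members 1 was past the edgeR threshold of adjusted p under 0.05, Idh1, in the downward direction. In all genes tested 0.707% were called lower. In CPM every ACS library was below every control library in 4 of the 8, Idh1, Idh2, Nnt and Idh3B, as in 14.8% of all genes tested. In FPKM this also held for Idh3a and Me1, and the share of all genes was not taken on that scale. In either direction 4.14% of all genes were called. At an unadjusted p under 0.05 in the same edgeR fit, 2 members were lower, Idh1 and Idh2, against 7.98% of all genes. The members were chosen on this comparison, so nothing is read from these shares. The median log2 fold change was -0.60 for all 8 members, -0.65 for the 3 mitochondrial NADP enzymes, -0.53 for the 3 Idh3 subunits and -0.01 for all genes tested. Over all genes 442 were called higher and 91 lower, and scaling by library totals gave 345 and 228 and put the median of all genes at -0.32. On the scale of log2(FPKM + 1), limma called 249 genes higher, 268 lower, and the median was -0.30. Every member was lower on average under each scaling tried.

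**Figure D2:**
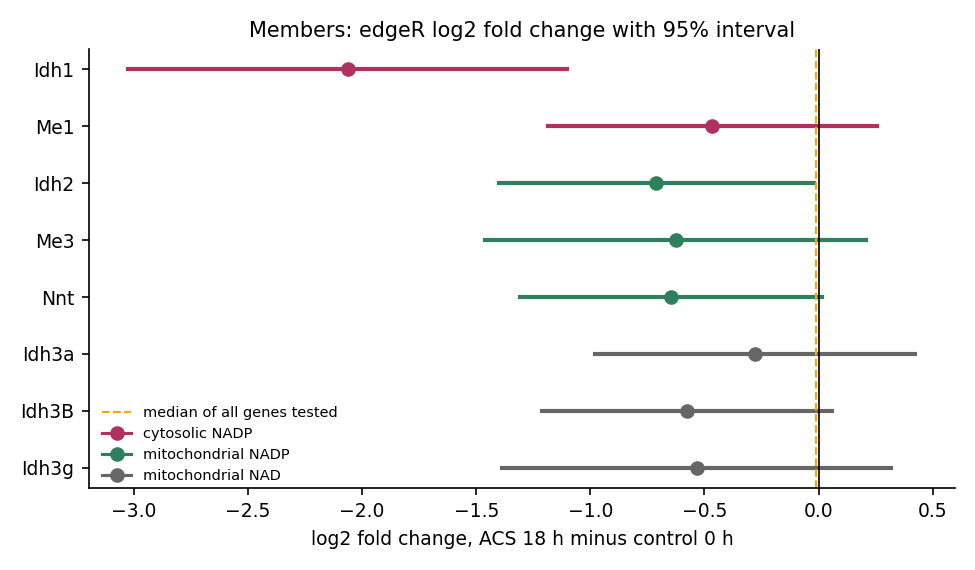
edgeR log2 fold change of ACS 18 h minus control 0 h for each found member, with its 95% interval; colours give the compartment and cofactor, and the dashed line the median of all genes tested. Idh1 stands at -2.06 and the other 7 members between -0.71 and -0.28.

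Ratios of 2 genes within a library do not depend on how libraries are scaled. Idh2 exceeded Idh1 by 30.9, 32.3 and 27.1 times in FPKM in control replicates 1, 2 and 3. In ACS replicates 1, 2 and 3 it exceeded Idh1 by 47.5, 197 and 65.8 times. On the log2 scale Idh1 relative to Idh2 was -4.91 ± 0.132 in control and -6.41 ± 1.07 in ACS muscle (SD, n = 3 each), without overlap. The difference was -1.50, or -0.90 without ACS replicate 2. Both genes were lower on average, and Idh1 by more.

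The same did not hold for the malic enzymes. Me1 relative to Me3 was 2.23, 2.50 and 2.29 on the log2 scale in control and 2.61, 1.96 and 3.21 in ACS muscle, with overlap. The difference of 0.25 turned to -0.06 without ACS replicate 3. Idh1 and Me1 together, relative to Idh2, Me3 and Nnt together, stood at -2.64 ± 0.158 in control and -2.57 ± 0.291 in ACS muscle, a difference of 0.07 that was -0.10 without ACS replicate 3 and -0.01 without control replicate 1. The summed cytosolic share thus changed by less than the spread between libraries, and since Idh1 was only 1.73% to 1.97% of the FPKM of these 5 genes in control muscle, its lower level hardly moved the sum.

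Further ratios were chosen after the values were seen. Idh1 relative to Me1 was -2.69 ± 0.247 in control and -4.40 ± 1.14 in ACS muscle on the log2 scale, without overlap. Nnt relative to Idh2 was -1.01 ± 0.175 and -0.97 ± 0.0920, with overlap, although both genes were lower on average in ACS muscle. Idh3a relative to Idh3g ranged from -1.31 to -0.31 in control and from -1.28 to 0.10 in ACS muscle. The balance of these subunits varied more among control libraries than between the group means, with the libraries marked "ji" highest in each group.

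**Figure D3:**
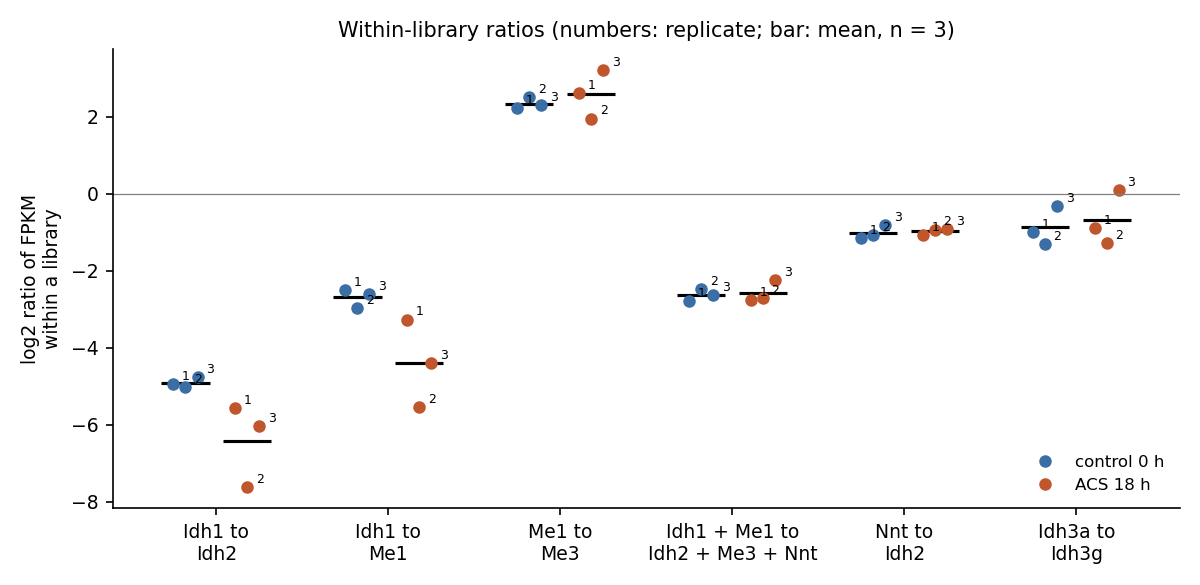
Within-library log2 ratios of FPKM between members in the 3 control and 3 ACS libraries; numbers give the replicate and bars the mean. Idh1 relative to Idh2 and to Me1 is lower in all 3 ACS libraries than in any control library, and the other ratios drawn overlap.

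Among 8877 other genes with a symbol and a mean of at least 5 CPM, those with the pattern most like Idh1 over the 6 libraries were Cxxc5, a zinc finger protein, Trib2, a pseudokinase, and Ankrd26. Their centred log2 CPM differed from that of Idh1 by a root mean square of 0.37, 0.40 and 0.43. Cxxc5 went from 33.6 to 7.67 CPM, Trib2 from 31.9 to 10.2 CPM and Ankrd26 from 8.94 to 2.91 CPM on average. Anapc5 and Rabl3 were among the nearest to Me1, each at a distance of 0.05. Idh1 thus had no neighbour as close as those of Me1 by this distance, which is not scaled to a gene's own spread or counts.

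The other genes of the pathways were tested in the same fit. Over 7 lists of 89 further genes, some of them not tested, 9 rose and 1 fell. Among all genes tested 3.43% were called higher and 0.707% lower. Because the lists were chosen with earlier results of these data known, nothing is read from these counts. The gene that fell was D2hgdh, which oxidises the hydroxyglutarate that isocitrate dehydrogenases can form as a side product. It was at 18.1, 16.2 and 18.7 CPM in control and 6.92, 9.01 and 7.53 CPM in ACS muscle, so the groups were far apart. Its log2 fold change was -1.17 (SE 0.260, edgeR adjusted p = 0.0459). The median log2 fold change of the 11 tested genes of the citrate, malate and glutamate shuttles was -0.19.

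Of 17 other genes in or next to the citrate cycle, such as Aco1, Mdh1 and Pc, 0 passed in edgeR, in DESeq2 or in limma-voom. In edgeR 1 was at an unadjusted p under 0.05. Their log2 fold changes lay between -0.77 and -0.15 with a median of -0.41, a range that held every found member except Idh1. Aco1, the cytosolic aconitase and so the enzyme beside Idh1, had a log2 fold change of -0.23 (edgeR adjusted p = 0.677), named after its values were seen.

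In the pentose phosphate pathway 1 of 9 tested genes rose, H6pd, which makes NADPH inside the endoplasmic reticulum. It was at 42.8, 34.5 and 63.1 CPM in control and 234, 536 and 124 CPM in ACS muscle, with a log2 fold change of 2.67 (SE 0.539, edgeR adjusted p = 0.0369). ACS replicate 2, the lowest for Idh1, was the highest for H6pd. The median log2 fold change of the 9 genes was 0.12.

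Among 12 genes of folate metabolism or linked to NADPH supply, 2 rose: the mitochondrial folate enzymes Mthfd2 and Mthfd1l. A place on this list does not mean that the enzyme makes NADPH. Mthfd2 averaged 0.646 ± 0.0588 CPM in control muscle against 5.81 ± 5.13 CPM at 18 h, a log2 fold change of 3.14 (SE 0.656, edgeR adjusted p = 0.0402). Mthfd1l averaged 0.981 ± 0.430 and 5.89 ± 3.33 CPM, a log2 fold change of 2.56 (SE 0.547, edgeR adjusted p = 0.0435). ACS replicate 1 was the highest for both, and leaving it out gave 2.14 and 2.00. Per length, Mthfd2 reached 2.32 ± 1.68 FPKM and Mthfd1l 1.34 ± 0.524 FPKM in ACS muscle, beside 2.13 ± 0.881 FPKM for Idh1.

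Of 14 tested Nrf2 target genes 5 rose in edgeR, of 16 NADPH users 1 (Txnrd1, on both lists) and of 12 fatty acid synthesis genes 1. Nrf2 is the stress-response factor that Me1 is known to answer to. Srxn1, which repairs peroxiredoxins, went from 1.504 ± 1.14 to 30.2 ± 13.5 CPM, and Txnrd1, the cytosolic thioredoxin reductase, which spends NADPH, from 49.0 ± 9.47 to 335 ± 201 CPM. Hmox1 and Ftl1 rose too, with log2 fold changes of 6.71 and 1.71, as did Gclc, named after its values were seen, with 2.18. Without ACS replicate 1, Hmox1 had 6.12 and Gclc 1.47, and without control replicate 2 Srxn1 had 5.05 in place of 4.33. Gsr, which spends NADPH on glutathione, was at 18.0 to 23.2 CPM in control and 18.9 to 22.1 CPM in ACS muscle. Thrsp, a lipogenic protein, rose from 2.42 ± 1.55 to 13.7 ± 4.99 CPM. Idh1 and Me1 were thus lower on average in the libraries where these Nrf2 target genes were higher, and that contrast was not itself tested. The median log2 fold change was 1.15 for the Nrf2 targets, 0.22 for the NADPH users and 0.31 for fatty acid synthesis.

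Some of these 10 calls were lost in edgeR when 1 library was left out. Without any 1 control library none of them passed, in fits in which no gene of the table did. Without ACS replicate 2 the calls for D2hgdh, H6pd, Mthfd2, Mthfd1l, Thrsp and Gclc were lost, with adjusted p of 0.0637, 0.0558, 0.0534, 0.0558, 0.0934 and 0.0670. Their log2 fold changes were then -1.32, 1.89, 3.36, 2.74, 2.26 and 2.29, so that of H6pd shrank the most, from 2.67.

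**Figure D4:**
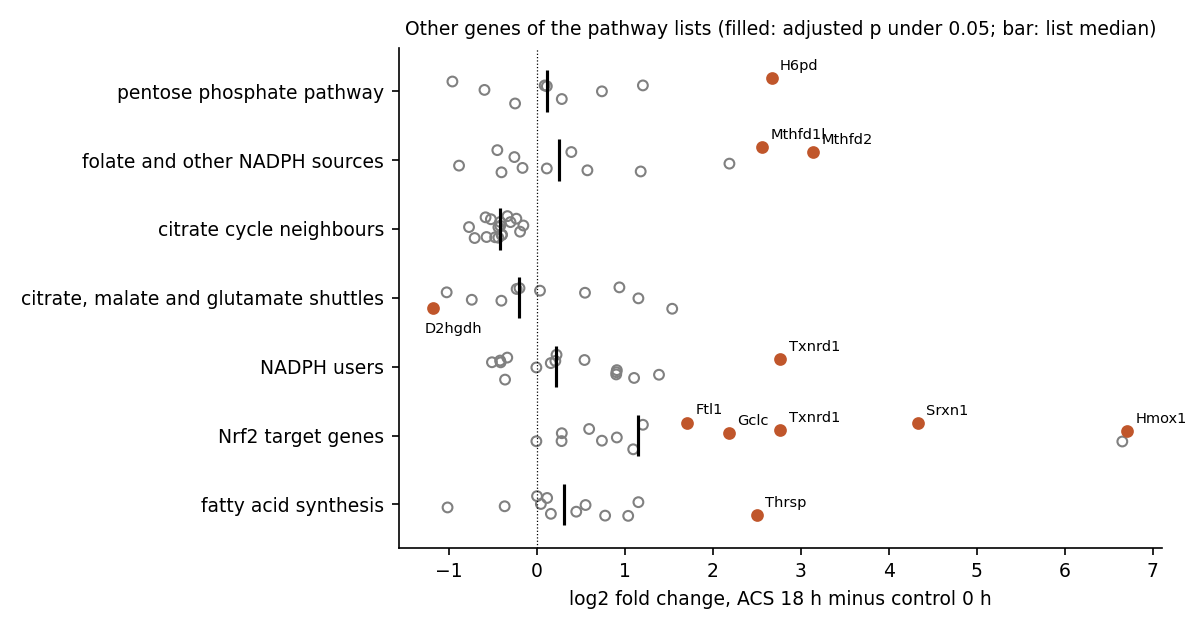
edgeR log2 fold change of ACS 18 h minus control 0 h for the tested genes of the 7 pathway lists, none of which holds a member; filled points passed an adjusted p of 0.05 and bars mark list medians. Genes in or next to the citrate cycle lie close together at -0.77 to -0.15, D2hgdh is the only filled point below 0, and the Nrf2 target genes reach 6.71.

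Marker genes place these values in the tissue. The fast myosin gene Myh1 was abundant in every library, at 57520 ± 7887 and 63150 ± 34110 CPM (SD, n = 3 each); Myh2 and Myh4 matched no row and were not analysed here. Of 10 tested myofibre markers 0 passed in edgeR, with 0 at an unadjusted p under 0.05, and their median log2 fold change was -0.29. Their summed level was 134700 to 158800 CPM in control and 85240, 122400 and 207600 CPM in ACS replicates 1, 2 and 3. Of 8 nuclear genes of mitochondrial content 0 passed in edgeR, with 0 at an unadjusted p under 0.05. Their median was -0.40, and they summed to 4043 to 4613 CPM in control and 1907, 3175 and 3627 CPM in ACS muscle. The mitochondrial members had medians of -0.65 and -0.53, lower than those of both lists, whose part in the result was not tested. Idh1 had its lowest level in ACS replicate 2 and both sums theirs in ACS replicate 1, and a link between them was not tested.

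In edgeR neutrophil markers were higher for 6 of 7 tested genes. The 7 summed to 17.3 to 23.2 CPM in control and 453, 39.5 and 95.8 CPM in ACS replicates 1, 2 and 3. In limma-voom none of these 6 passed (adjusted p from 0.0547 to 0.111). With the "ji" term in edgeR Mmp8 and S100a8 passed, and Cxcr2 did not (adjusted p = 0.0545). Mmp8, Cxcr2 and S100a8 had log2 fold changes of 5.89, 5.70 and 5.01, and of 4.85, 4.05 and 4.27 without ACS replicate 1. The other marker, Ncf1, named after its values were seen, had -0.95, from 17.2 to 8.93 CPM (edgeR adjusted p = 0.173, unadjusted 0.0336). In the red cell list 2 of 4 rose, Alas2 and Hbb, the latter not without ACS replicate 2 (edgeR adjusted p = 0.0509) or with library totals (0.0601), with sums of 445 to 1221 CPM and 1747 to 10320 CPM. No macrophage (8 tested), fibroblast (5), endothelial (6) or adipocyte (8) marker passed in edgeR, with 5, 3, 0 and 1 higher at an unadjusted p under 0.05 and 1 macrophage marker lower. Their most abundant genes Lyz2, Col1a1, Cdh5 and Fabp4 had log2 fold changes of 4.38, 1.88, 0.82 and 0.43. Without ACS replicate 1 these were 1.64, 2.14, 0.08 and -0.78, so that of Fabp4 turned, as it did with library totals (-0.04). The sums were 46.7 to 78.1 CPM in control and 114 to 1721 CPM in ACS muscle for macrophages, 402 to 678 and 1549 to 1943 CPM for fibroblasts, 274 to 422 and 223 to 646 CPM for endothelium. Adipocytes, in which Me1 and Idh1 are known to be abundant, summed to 80.7, 105 and 132 CPM in control and 323, 109 and 37.3 CPM in ACS replicates 1, 2 and 3, with Adrb3 at 0 in all 3 control libraries. Each of these sums was highest in ACS replicate 1 except that of fibroblasts. ACS replicate 1 had the lowest Me1 of its group and, in CPM, the highest Idh1, at 7.205 against 5.916 in ACS replicate 3. In FPKM Idh1 was higher in ACS replicate 3, at 2.695 against 2.583 in ACS replicate 1. The part of other cells in the members' values was not tested.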

How the data were processed

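Ribosomal RNA was depleted from total RNA of 6 libraries, per the labels' protocols. The authors deposited whole-number read counts and FPKM per Ensembl gene; per the submitters' processing notes, the tools included HISAT2 2.0.4 and StringTie 1.3.0, and the build was Rnor 6.0. Which tool counted reads, and whether by strand, was not given in the sources used here, so reads of overlapping or antisense genes may not be told apart, and genes with near-identical copies (Ftl1, Hbb) are uncertain. Dividing counts by gene length and library total gave the deposited FPKM to within 0.1% in all 8093 genes checked.

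Counts were fitted with edgeR 4.0.16 in R 4.3.3 (filterByExpr with a minimum count of 10 and a minimum total of 15, TMM, quasi-likelihood F test of group, Benjamini-Hochberg adjustment over 12873 genes, threshold 0.05). Standard errors came from the F statistic. The fit was tested on simulated counts. Library totals lay between 14340865 and 21003928 counts, and no replicates agreed within sampling noise (chi-square per degree of freedom 38.2 to 721). On Rnor 6.0, Idh1 spans 71882105 to 71900044 of chromosome 9, Idh2 141866283 to 141893705 of chromosome 1 and Me1 94256839 to 94368834 of chromosome 8.

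The members, 7 pathway lists and 8 marker lists (myofibre, mitochondrial content, neutrophil, macrophage, endothelial, fibroblast, red cell, adipocyte) were chosen with earlier results of these data known. Named genes are the members, up to 3 genes per list that passed, taken by adjusted p, or else its most abundant gene, the 3 nearest patterns to Idh1 and Me1 (the rule also held Pgd), and genes said to be named after their values were seen; some genes that this rule names are not reported here. Symbols were matched exactly, ignoring case, or through synonyms in RefSeq (such as Atp5b for Atp5f1b and Scd1 for Scd). Promoters are from RefSeq, build GRCr8; Idh3a has no entry. Alternatives used DESeq2 1.42.0 and limma 3.58.1. Groups of 3 were not tested for outliers. Figures were drawn with matplotlib 3.10.9.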

Additional observations from a re-analysis of the deposited data

How the results depend on the processing

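All 8 members were lower on average under each of the 18 alternatives (normalization, test, unit, filter, replicate block, term for the "ji" libraries, libraries left out). Idh1 passed in 13, with log2 fold changes from -2.46 to -1.74 and adjusted p from 0.00019 to 0.173. It did not pass with the "ji" term (-2.06), without both "ji" libraries (-2.31, adjusted p = 0.0966) or without any 1 control library; with 1 library left out it ranged from -2.38 to -1.74, and members called lower from 0 to 1. With the "ji" term or without both "ji" libraries 0 members passed. Over the pathway lists, 9 higher and 1 lower became 5 and 1 with limma on log2(FPKM + 1), 3 and 1 on log2(FPKM + 0.1), 12 and 3 with DESeq2, 6 and 0 with limma-voom, 6 and 0 with the "ji" term, 4 and 0 without both "ji" libraries, and 0 to 15 and 0 to 1 with 1 library left out. The replicate block gave 10 and 0, D2hgdh being lost (adjusted p = 0.0919), and -2.17 for Idh1 (adjusted p = 0.0251). Deviations of same-numbered libraries correlated across genes at -0.06, 0.01 and 0.04, and not every library correlated best with its own number. As deviations from the mean of 3 libraries, these values cannot decide whether the numbers pair the samples. The difference in Me1 relative to Me3 ranged from -0.063 to 0.57 with 1 library left out. That of the summed cytosolic to mitochondrial ratio was -0.076 as a median and ranged from -0.10 to 0.16. As TMM CPM per kilobase the control levels were 153 for Nnt and 129 for Idh3a, beyond 1 SD of their FPKM. The cause of these changes was not tested. With 3 libraries a group, the other 7 members did not pass under any alternative, which does not show that they are equal in both groups. The low counts of Idh1 in ACS muscle limit its precision.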
